A study of Homo sapiens with 3 samples.

Results

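The human genome holds 39 protein-coding HOX genes, and all 39 were taken here by symbol from the 60554 genes of the deposited table, whatever their level. They form 4 clusters: HOXA on chromosome 7 (11 genes), HOXB on chromosome 17 (10 genes), HOXC on chromosome 12 (9 genes) and HOXD on chromosome 2 (9 genes). RNA was sequenced from KYSE30, a long-established line of human esophageal squamous carcinoma, and the design asks what differs when SNORD12B is depleted. SNORD12B is a small nucleolar RNA of the box C/D class, whose members guide methylation of ribosomal RNA. Each of 3 stable lines gave 1 library: a line labelled shSNORD12B-1, a line labelled shSNORD12B-2 with a different shRNA, and a line labelled vector. All lines carried a lentiviral pLKO.1-blast construct, were exposed to virus for 24 hours and were selected with 5 ug/mL blasticidin for 2 weeks in medium with 10% serum. By its genotype label the control line carries a vector, but the protocol gives it a scrambled shRNA with no target. No line had a further culture, so the only spread behind a p-value is that between the 2 shRNA lines. The vector line is assumed to vary as they do. For a single gene this spread is drawn mostly from all tested genes (1 residual degree of freedom, a median of 8.35 prior ones).

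HOX genes encode homeodomain transcription factors that give cells their position along the body axis. The genes of a cluster lie in the order of the body regions they pattern: low paralog numbers act towards the head, high numbers towards the tail and the limb ends, and genes with the same number in different clusters are paralogs. Adult cells keep part of this code, Polycomb and trithorax complexes hold its silent and active parts, and carcinomas often express HOX genes that their tissue of origin does not.

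The libraries held 15146805 counts (labelled shSNORD12B-1), 17336936 counts (labelled shSNORD12B-2) and 15473922 counts (vector), and 17801 genes passed the filter on low counts. SNORD12B itself was counted 15 times in the library labelled shSNORD12B-1, 1 time in that labelled shSNORD12B-2 and 7 times in the vector library. The count thus went against the label of the shSNORD12B-1 library, whose ratio to vector was 2.16 (95% exact conditional interval 0.831 to 6.28). This interval reached across 1. The count went with the label of the shSNORD12B-2 library at 0.126 (0.0028 to 0.982). SNORD12B is 91 bases long and lies within the span of ZFAS1 on the same strand. ZFAS1 had 14.2, 9.49 and 12.1 CPM in the libraries labelled shSNORD12B-1, shSNORD12B-2 and vector. Counts this few do not settle whether SNORD12B was depleted in the line labelled shSNORD12B-1. Directions below are therefore those of libraries as labelled. Summed markers of epithelium (EPCAM, KRT8, KRT18, CDH1) were 6720, 6954 and 6874 CPM in the libraries labelled shSNORD12B-1, shSNORD12B-2 and vector. The 9 squamous markers summed to 1001, 1524 and 1805 CPM in the same order, and 8 passed the filter (all but KRT5, with 3, 2 and 1 counts). All 8 lay below vector in the library labelled shSNORD12B-1 (48.5% of all tested genes did), with a median log2 ratio of -0.96. In that labelled shSNORD12B-2, 6 of the 8 did (50.3% of all), with a median of -0.56. SOX2, KRT6A and KRT17 had an unadjusted p under 0.05 by the edgeR quasi-likelihood test, all below vector (0.921% of all tested genes). The part of these markers in the HOX values was not tested. Of 7 fibroblast markers, PDGFRA, COL1A2, LUM and DCN had 0 counts in every library, and the list summed to 9.469, 13.74 and 16.01 CPM, mainly from COL1A1 with 142, 230 and 245 counts. The 4 leukocyte markers summed to 0.197, 0.230 and 0.195 CPM.

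Of the 39 HOX genes, 28 passed the filter on low counts and 11 did not, and 26 reached 1 CPM, a count scaled to the depth of its library, in at least 1 library. All 11 HOXA genes passed, as did 7 of 10 HOXB, 7 of 9 HOXC and 3 of 9 HOXD genes. HOXB1, HOXD1, HOXD3, HOXD4 and HOXD12 had 0 counts in every library. A count of 0 allows up to 3 counts, which is 0.197 CPM in the library labelled shSNORD12B-1, 0.172 CPM in that labelled shSNORD12B-2 and 0.195 CPM in the vector library. The other 6 genes under the filter were HOXB2, HOXB8, HOXC5, HOXC12, HOXD9 and HOXD13. HOXD4, HOXD3 and HOXC5 share 80.46%, 62.18% and 59.89% of their exonic bases with other genes on the same strand. There the counting could not assign a read to 1 gene, so their counts and limits cover only the remaining bases. Every interval and limit given here covers counting error only.

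No HOX gene passed the test of the 2 shRNA libraries against vector (edgeR quasi-likelihood test, adjusted p under 0.05 over 17801 genes), which called 0.0% of all genes higher and 0.0% lower. At an unadjusted p under 0.05 by this test, 0 of the 28 HOX genes were reached. Among all tested genes, 73 were higher (0.41%) and 164 lower (0.921%). With shares this small, 0 of 28 is no contrast to all genes. DESeq2 called 1 gene higher and 14 lower over all genes, limma-voom 0 higher and 1 lower, and the edgeR likelihood ratio test 2 higher and 36 lower, with 0 HOX genes in each. The fitted log2 fold changes of the HOX genes ran between -0.76 and 0.96 with a median of 0.10, against a median of 0.01 for all tested genes. HOXC6 had the smallest p (0.296, adjusted p = 1 by the edgeR quasi-likelihood test). In bulk RNA, fewer cells with an active gene and less of its RNA per cell cannot be told apart.

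Single libraries showed what the common fit averages over. Counts of genes past 2-fold use log-CPM with 2 added as a prior count, which shrinks the ratios of low genes. Against vector, 2 of 28 HOX genes were at least 2-fold lower in the library labelled shSNORD12B-1 (7.14%, against 5.58% of all tested genes) and 0 were 2-fold higher (3.74% of all). In the library labelled shSNORD12B-2, 1 of 28 was at least 2-fold higher (3.57%, against 2.98% of all) and 0 were 2-fold lower (3.46% of all). Both shares lie near those of all genes. Of any size, 11 HOX genes lay above and 17 below vector in the library labelled shSNORD12B-1 (51.5% and 48.5% of all), and 17 above and 11 below in that labelled shSNORD12B-2 (49.7% and 50.3% of all). Above vector in both were 6 HOX genes (21.4%, against 28.2% of all) and below in both another 6 (21.4%, against 27.0%). No HOX gene was 2-fold away from vector in the same direction in both shRNA libraries, where all genes had 0.977% higher and 1.19% lower. Between the 2 shRNA libraries, 5 HOX genes were at least 2-fold lower in that labelled shSNORD12B-1 than in that labelled shSNORD12B-2 (17.9%, against 6.61% of all), and 0 were 2-fold higher (5.54% of all). Of any size, 9 were higher and 19 lower between these libraries (50.1% and 49.9% of all). The 5 genes past 2-fold were HOXA5, HOXB13, HOXC4, HOXD10 and HOXD11, each with at most 46 counts in any library. The remaining 22 genes besides HOXC6 stayed within 2-fold in all 3 pairs of libraries (78.6%, against 81.7% of all). These are descriptions of single libraries, with no test.

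In the library labelled shSNORD12B-1, HOXD10 and HOXD11 stood furthest from vector among the HOX genes that passed the filter. Both (ENSG00000128710.5 and ENSG00000128713.12) lie in the posterior part of the HOXD cluster (chromosome 2, 176092891 to 176190907, plus strand, hg38), in a run with HOXD9, and pattern the limbs and the lower spinal cord in mice. Of the HOXD genes with counts, HOXD8 did not show their pattern. The 250 bases before the RefSeq start of HOXD11, HOXD10 and HOXD8 (GRCh38.p14, plus strand, 5′ to 3′) are printed because these 3 genes had the highest counts of the cluster and differed in that pattern, with capitals marking each CpG, the dinucleotide that DNA methylation acts on. The windows are chr2:176107030-176107279 for HOXD11, chr2:176116528-176116777 for HOXD10 and chr2:176129455-176129704 for HOXD8.
HOXD11: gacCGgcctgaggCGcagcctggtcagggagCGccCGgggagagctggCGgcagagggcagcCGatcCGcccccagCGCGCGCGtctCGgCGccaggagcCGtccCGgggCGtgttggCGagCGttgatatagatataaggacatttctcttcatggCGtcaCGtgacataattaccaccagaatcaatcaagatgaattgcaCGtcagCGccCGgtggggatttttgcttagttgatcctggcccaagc
HOXD10: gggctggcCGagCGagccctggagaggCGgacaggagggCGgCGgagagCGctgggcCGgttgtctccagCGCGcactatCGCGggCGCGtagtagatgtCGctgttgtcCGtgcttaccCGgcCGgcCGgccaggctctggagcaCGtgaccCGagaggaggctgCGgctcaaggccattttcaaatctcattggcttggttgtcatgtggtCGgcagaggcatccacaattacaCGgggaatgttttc
HOXD8: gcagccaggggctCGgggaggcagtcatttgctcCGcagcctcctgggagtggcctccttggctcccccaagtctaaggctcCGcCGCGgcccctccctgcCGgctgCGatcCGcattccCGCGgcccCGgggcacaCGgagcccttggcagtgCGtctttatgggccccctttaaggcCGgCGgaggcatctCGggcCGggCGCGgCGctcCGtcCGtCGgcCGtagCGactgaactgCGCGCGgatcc
The windows held 23 CpG dinucleotides for HOXD11, 23 for HOXD10 and 28 for HOXD8, against a median of 11 over 35116 windows of this length in the table, of which 25.8% had at least 23 and 15.9% at least 28. Their G and C content was 61.6% for HOXD11, 64.0% for HOXD10 and 72.4% for HOXD8, against a median of 58.0%. The TATA box letters TATAAA, searched on both strands and found in 10.7% of all windows, occurred in none of these windows. The letters TGATNNAT, a form of the joint HOX and PBX site found in 6.47% of all windows, occurred 1 time in the HOXD11 window and not in the HOXD10 or HOXD8 window. The homeodomain core TAAT, found in 47.4% of all windows, occurred 2 times for HOXD11, 1 time for HOXD10 and not for HOXD8. The 2 matches for HOXD11 overlap each other on opposite strands, in 1 stretch of letters, TAATTA. No core overlapped the longer site. A match is a description of letters and not of a bound site.

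HOXD10 had 1 count in the library labelled shSNORD12B-1, 29 counts in that labelled shSNORD12B-2 and 23 counts in the vector library, or 0.0658, 1.67 and 1.497 CPM. The library labelled shSNORD12B-1 was low, and that labelled shSNORD12B-2 lay close to vector. The ratio to vector was 0.0439 (95% exact conditional interval 0.00107 to 0.271) for the label shSNORD12B-1 and 1.11 (0.622 to 2.01) for the label shSNORD12B-2. HOXD11 had 5, 35 and 22 counts in the same order, or 0.329, 2.01 and 1.43 CPM. Its ratios to vector were 0.23 (0.0679 to 0.621) and 1.40 (0.801 to 2.51), so both genes had the same order of libraries. HOXD9, a neighbour under the filter, had 1, 10 and 5 counts, and its ratio of the library labelled shSNORD12B-1 to that labelled shSNORD12B-2 was 0.114 (0.00264 to 0.804). HOXD9, HOXD10 and HOXD11 together, a run chosen after its values were seen, gave 7, 74 and 50 counts, or 0.460, 4.25 and 3.25 CPM. The ratio of this sum to vector was 0.141 (0.0541 to 0.313) for the label shSNORD12B-1 and 1.31 (0.901 to 1.91) for the label shSNORD12B-2.

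HOXD8, which lies next to HOXD9 towards the anterior end, had 14, 10 and 9 counts in the libraries labelled shSNORD12B-1, shSNORD12B-2 and vector, or 0.921, 0.575 and 0.586 CPM. Its ratio of 1.57 to vector for the label shSNORD12B-1 had an interval of 0.634 to 4.12, so no difference from vector was detectable at this depth. At the posterior end, HOXD13, a digit gene, had 1 count in the vector library and 0 in both others. The common fit gave HOXD10 a log2 fold change of -0.76 (SE 1.17) and HOXD11 one of -0.27 (SE 0.97), each with an adjusted p of 1 by the edgeR quasi-likelihood test. Without the library labelled shSNORD12B-1 the HOXD10 value was 0.15, and without that labelled shSNORD12B-2 it was -4.35, so the library decides the value. HOXD10 and HOXD11 overlap on the same strand over 16.79% and 21.42% of their exonic bases, where the counting could not assign a read to either gene.

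Genes beside the HOXD cluster did not share the low values. MTX2, a mitochondrial outer membrane gene, had 34.6, 34.3 and 29.4 CPM in the libraries labelled shSNORD12B-1, shSNORD12B-2 and vector. LNPK, which shapes the endoplasmic reticulum, had 22.4, 19.1 and 18.7 CPM in that order. Of 6 listed neighbours, 5 passed the filter, and all 5 lay above vector in the library labelled shSNORD12B-1 (51.5% of all tested genes did), with a median log2 ratio of 0.24, and ATP5MC3 had the smallest difference (204, 151 and 204 CPM). EVX2, a homeobox gene at the posterior end of the cluster, had 0 counts in every library. The sum of the 3 endothelial markers had the order of the HOXD9 to HOXD11 counts, with 0.921, 5.81 and 3.71 CPM, mainly from CDH5 with 13, 91 and 40 counts. VWF, highest in the vector library, had 1, 9 and 17 counts and PECAM1 0, 1 and 0 counts. Their part in the result was not tested.

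**Figure D1:**
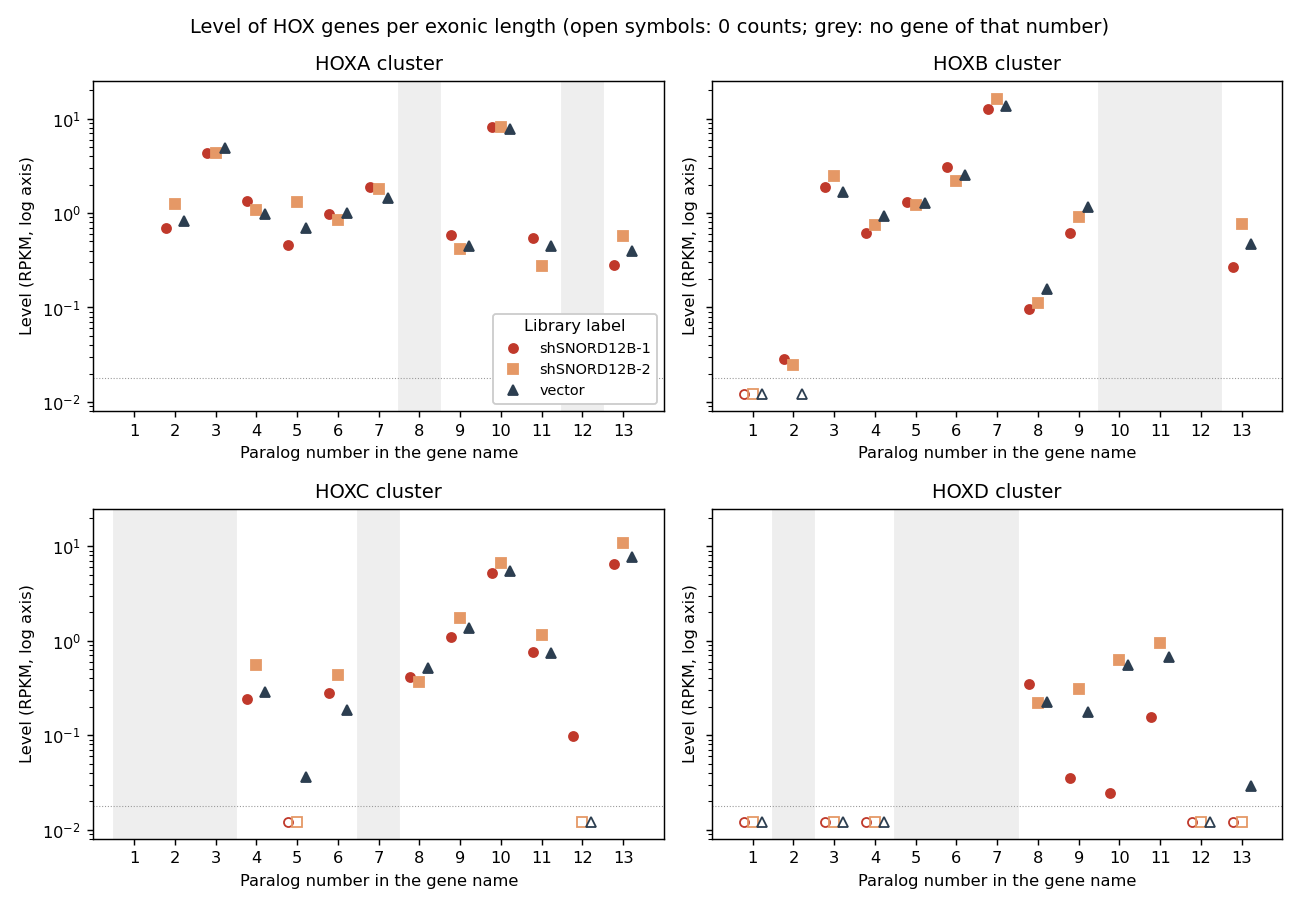
Level of the HOX genes in each library, in RPKM (CPM per kilobase of exonic length, log axis), by paralog number, with 1 panel for each cluster and 1 symbol for each library. Open symbols under the dotted line are 0 counts and grey bands are numbers the cluster lacks. Genes not reported singly are not drawn. Symbols of most HOXA, HOXB and HOXC genes lie close together, whereas HOXD9, HOXD10 and HOXD11 are low in the library labelled shSNORD12B-1.

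Per exonic length (RPKM, the CPM divided by kilobases of exon), HOXB7, HOXC13, HOXA10, HOXC10 and HOXA3 had the highest mean levels over the 3 libraries among the HOX genes described singly, and these 5 led in each library. HOXB7 stood at 12.6, 16.2 and 13.6 RPKM in the libraries labelled shSNORD12B-1, shSNORD12B-2 and vector, above all other HOX genes in each. HOXA10, a gene of uterine patterning, stood at 8.05, 8.08 and 7.69 RPKM. HOXC13, a gene of hair and nail formation, stood at 6.43, 11.0 and 7.71 RPKM. The order of HOXC13 and HOXA10 differed between libraries: HOXA10 stood above HOXC13 in that labelled shSNORD12B-1, HOXC13 above HOXA10 in that labelled shSNORD12B-2, and they lay close together in the vector library. No cluster was silent throughout.

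Summed over all members, the HOX genes gave 168.9, 207.6 and 182.8 CPM in the libraries labelled shSNORD12B-1, shSNORD12B-2 and vector. The ratios to vector were 0.924 (95% exact conditional interval 0.876 to 0.975) and 1.14 (1.08 to 1.19), so the shRNA libraries lay on opposite sides of vector, each by less than 1.5 times. HOXA gave 83.6, 90.6 and 89.6 CPM, with both ratio intervals reaching across 1. HOXB gave 49.1, 59.6 and 50.8 CPM, and its ratio for the label shSNORD12B-2 was 1.17 (1.07 to 1.29). HOXC gave 34.8, 52.5 and 38.5 CPM, with a ratio of 1.37 (1.23 to 1.52) for the label shSNORD12B-2 and 0.904 (0.802 to 1.02) for the label shSNORD12B-1. The HOXC sum was thus the furthest above vector in the library labelled shSNORD12B-2. HOXD gave 1.38, 4.83 and 3.91 CPM from 21, 84 and 60 counts, with ratios of 0.354 (0.204 to 0.59) and 1.24 (0.877 to 1.75), and was the furthest below vector in the library labelled shSNORD12B-1.

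**Figure D2:**
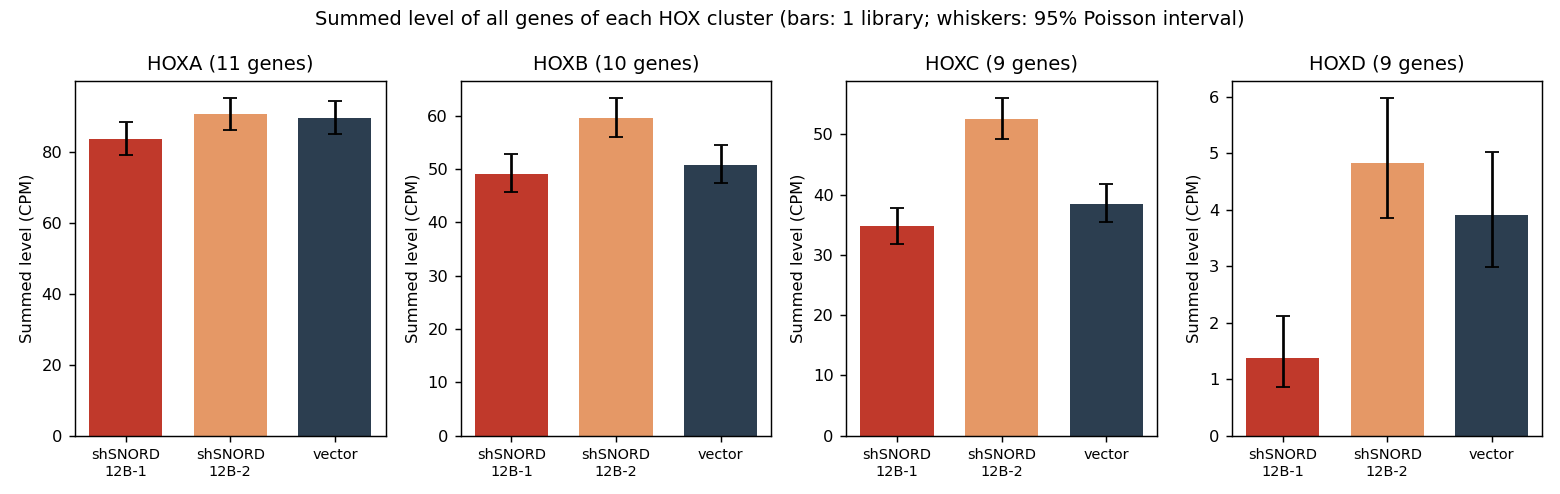
Summed level of all genes of each HOX cluster (CPM) in each library, 1 panel for each cluster, with its own axis starting at 0. Bars are single libraries and whiskers are 95% exact Poisson intervals, which cover counting error only. HOXC is highest in the library labelled shSNORD12B-2 (52.5 CPM) and HOXD lowest in that labelled shSNORD12B-1 (1.38 CPM).

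By position, the anterior genes (paralog numbers 1 to 3, of which 4 of 8 passed the filter) had a median log2 ratio to vector of -0.19 for the label shSNORD12B-1 and 0.24 for the label shSNORD12B-2. Central genes (4 to 8, 12 of 15) had medians of 0.00 and 0.07 in that order. Posterior genes (9 to 13, 12 of 16) had medians of -0.27 and 0.32. The median of all tested genes was 0.01 for the label shSNORD12B-1 and 0.00 for the label shSNORD12B-2, and that of the 28 HOX genes was -0.14 and 0.20. Summed levels by position were 54.6, 64.9 and 61.4 CPM for anterior, 44.7, 49.9 and 44.5 CPM for central and 69.6, 92.9 and 76.9 CPM for posterior genes, in the libraries labelled shSNORD12B-1, shSNORD12B-2 and vector. Posterior sums spread the most between the 2 shRNA libraries. Within them the paralogs of number 13 gave 17.9, 32.1 and 22.4 CPM, with ratios to vector of 0.802 (0.681 to 0.942) for the label shSNORD12B-1 and 1.44 (1.25 to 1.65) for the label shSNORD12B-2, whereas those of number 10 gave 42.0, 47.1 and 42.6 CPM, with ratios of 0.985 (0.882 to 1.1) and 1.11 (0.997 to 1.23). For the label shSNORD12B-2, the paralogs of numbers 2, 9 and 11 had ratios of 1.54, 1.02 and 1.32, with intervals that reached across 1. For that label, the point values of the posterior numbers 9, 10, 11 and 13 thus rose with paralog number. Number 12 had 0 counts in that library and in vector. Over all numbers the values did not follow paralog number, with 1.54 for number 2 and 0.792 for number 8. For the label shSNORD12B-1, numbers 9, 10, 11 and 13 had 0.755, 0.985, 0.835 and 0.802. The order was not tested.

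In the HOXA cluster (chromosome 7, minus strand, hg38), 10 of 11 genes stayed within 2-fold in all pairs of libraries at a prior count of 2. HOXA3, a gene of thymus and parathyroid formation, had 284, 327 and 322 counts in the libraries labelled shSNORD12B-1, shSNORD12B-2 and vector, or 18.7, 18.8 and 21.0 CPM, and HOXA2, which acts in the second pharyngeal arch, had 26, 53 and 31 counts, or 1.71, 3.05 and 2.02 CPM. HOXA10 had 454, 521 and 438 counts, or 29.85, 29.95 and 28.51 CPM, and was the most even of the high genes, with ratios of 1.05 (0.916 to 1.2) and 1.05 (0.923 to 1.2).

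HOXA5, which patterns the lung and the neck skeleton in mice, was the 1 HOXA gene past 2-fold on that scale. It had 12, 39 and 18 counts in the libraries labelled shSNORD12B-1, shSNORD12B-2 and vector, or 0.789, 2.24 and 1.17 CPM. Its ratio between the libraries labelled shSNORD12B-1 and shSNORD12B-2 was 0.352 (0.168 to 0.686), and the vector library lay between them. HOXA13, a gene of the hand, foot and genital tract, had 1.45, 2.93 and 2.02 CPM from 22, 51 and 31 counts, again with vector between the others. Its ratio between the libraries labelled shSNORD12B-1 and shSNORD12B-2 was 0.493 (0.285 to 0.828) without a prior count, just past 2-fold, and -0.96 on the log2 scale with it. HOXA11, a forearm gene in mice, had the opposite order with 1.25, 0.632 and 1.04 CPM from 19, 11 and 16 counts. HOXA4 had 2.37, 1.90 and 1.69 CPM, HOXA6 1.25, 1.09 and 1.30 CPM, HOXA7 4.54, 4.37 and 3.45 CPM, and HOXA9, a gene of blood stem cells and leukemia, 1.78, 1.26 and 1.37 CPM. For these 4 genes and HOXA11 the ratio intervals to vector reached across 1 in both libraries. HOXA-AS3 overlaps 62.51% of HOXA7 and 39.3% of HOXA6 exonic bases on the opposite strand, and reads of the 2 strands could not be told apart without knowledge of the library kit.

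In the HOXB cluster (chromosome 17, 48528526 to 48729178, minus strand), HOXB7, HOXB3 and HOXB6 carried most counts. HOXB7 had 292, 430 and 320 counts in the libraries labelled shSNORD12B-1, shSNORD12B-2 and vector, or 19.2, 24.7 and 20.8 CPM. HOXB3, a hindbrain gene, had 215, 324 and 190 counts, or 14.1, 18.6 and 12.4 CPM, with a ratio to vector of 1.51 (1.25 to 1.81) for the label shSNORD12B-2 and 1.14 (0.936 to 1.4) for the label shSNORD12B-1. HOXB3 was thus above vector in both, beyond counting error in that labelled shSNORD12B-2, and its fitted log2 fold change was 0.41 (SE 0.41, adjusted p = 1 by the edgeR quasi-likelihood test). HOXB6 had 122, 99 and 101 counts, or 8.02, 5.69 and 6.57 CPM, and shares 16.63% of its exonic bases with HOXB3 on the same strand.

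HOXB9, a gene of the thoracic skeleton and mammary gland in mice, had 24, 41 and 46 counts in the libraries labelled shSNORD12B-1, shSNORD12B-2 and vector, or 1.58, 2.36 and 2.99 CPM. Its ratio to vector was 0.527 (0.308 to 0.882) for the label shSNORD12B-1 and 0.787 (0.504 to 1.23) for the label shSNORD12B-2. HOXB13, a prostate gene at the far posterior end, had 14, 46 and 25 counts, or 0.921, 2.64 and 1.63 CPM, and a ratio of 0.348 (0.177 to 0.644) between the libraries labelled shSNORD12B-1 and shSNORD12B-2. As with HOXA5 and HOXA13, vector lay between the shRNA libraries for HOXB13. HOXB4, known for its effect on blood stem cells, had 2.30, 2.82 and 3.52 CPM, and HOXB5 had 2.70, 2.47 and 2.60 CPM. HOXB8 had 3, 4 and 5 counts and HOXB2 1, 1 and 0 counts in that order.

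**Figure D3:**
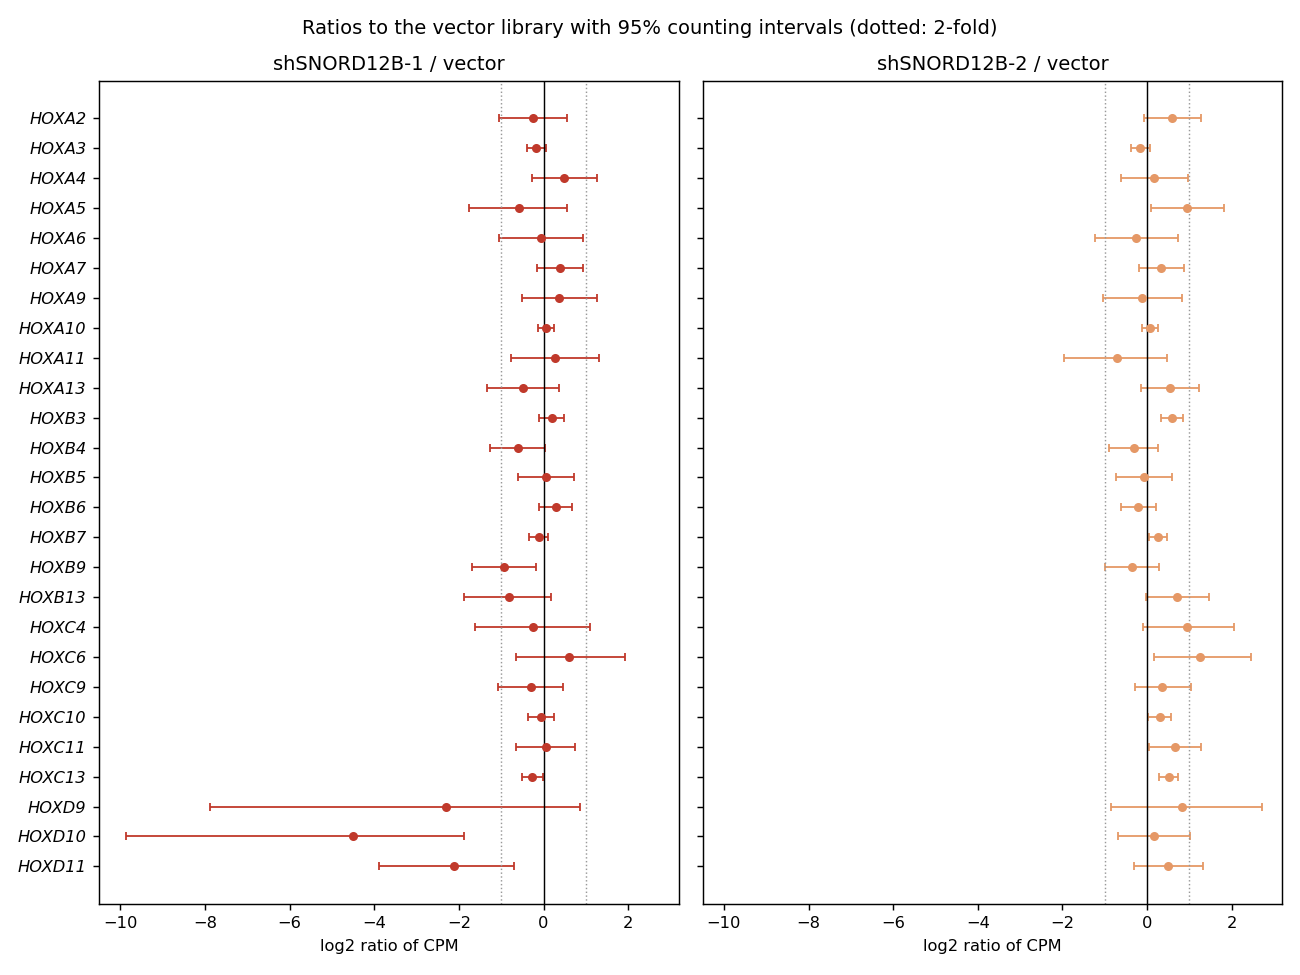
Log2 ratio of CPM to the vector library for the 25 HOX genes described singly with at least 1 CPM in some library and for HOXD9, in the library labelled shSNORD12B-1 (left) and in that labelled shSNORD12B-2 (right). Points are single libraries without a prior count, whiskers are 95% exact conditional intervals for counting error, and dotted lines mark 2-fold. HOXD10 and HOXD11 have intervals wholly below 0 on the left and across 0 on the right.

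In the HOXC cluster (chromosome 12, 53938765 to 54056030, plus strand), HOXC13 and HOXC10 carried most counts. HOXC13 had 237, 462 and 287 counts in the libraries labelled shSNORD12B-1, shSNORD12B-2 and vector, or 15.6, 26.6 and 18.7 CPM. Its ratio to vector was 0.834 (0.699 to 0.994) for the label shSNORD12B-1 and 1.42 (1.22 to 1.65) for the label shSNORD12B-2, and the ratio between those libraries was 0.587 (0.499 to 0.688). HOXC13 thus lay on opposite sides of vector, and its fitted log2 fold change of 0.17 (SE 0.43) became 0.51 without the library labelled shSNORD12B-1 and -0.26 without that labelled shSNORD12B-2. HOXC13-AS, the transcript opposite it, which overlaps 7.1% of its exonic bases, had 72, 144 and 83 counts, or 4.73, 8.28 and 5.40 CPM, in the same order of libraries. HOXC10, a hindlimb gene, had 184, 270 and 194 counts, or 12.1, 15.5 and 12.6 CPM, with a ratio of 1.23 (1.02 to 1.49) for the label shSNORD12B-2.

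HOXC6, a thoracic gene, was the 1 HOX gene past 2-fold from vector in the library labelled shSNORD12B-2. It had 15, 27 and 10 counts in the libraries labelled shSNORD12B-1, shSNORD12B-2 and vector, or 0.986, 1.55 and 0.651 CPM. Its ratio to vector was 1.52 (0.637 to 3.77) for the label shSNORD12B-1 and 2.38 (1.12 to 5.52) for the label shSNORD12B-2. The fitted log2 fold change was 0.96 (SE 0.87, adjusted p = 1 by the edgeR quasi-likelihood test). With 10 vector counts, the excess was past 2-fold at a prior count of 2 and not at 5. HOXC4 had 10, 26 and 12 counts, or 0.658, 1.49 and 0.781 CPM, HOXC9, which sets thoracic motor neuron identity in mice, 1.84, 2.93 and 2.28 CPM, and HOXC11 2.50, 3.79 and 2.41 CPM. In each of these 3 genes the library labelled shSNORD12B-2 was the highest. HOXC8 had 12, 12 and 15 counts, HOXC12 5, 0 and 0 counts, and HOXC5 0, 0 and 1 count.

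Noncoding transcripts inside the clusters were mostly low. Of 22 listed noncoding RNAs, 12 passed the filter and 0 were called (edgeR quasi-likelihood test). At an unadjusted p under 0.05 by that test (0.41% higher and 0.921% lower among all tested genes), 0 of these 12 were reached. Their median log2 ratio to vector was -0.13 for the label shSNORD12B-1 and 0.16 for the label shSNORD12B-2. HOTAIRM1, a HOXA transcript, had 8.02, 8.97 and 9.63 CPM in the libraries labelled shSNORD12B-1, shSNORD12B-2 and vector. HOXB-AS1 had 1.78, 2.36 and 1.76 CPM and HOXC-AS2 had 1.64, 2.07 and 2.02 CPM. HOTAIR, a HOXC transcript described in other human cells as a repressor of HOXD genes, had 7, 29 and 16 counts, or 0.460, 1.67 and 1.04 CPM. HOTTIP, transcribed from the posterior end of HOXA, had 0, 8 and 5 counts. HOTAIR and HOTTIP were named after their values were seen, and both had the lowest value in the library labelled shSNORD12B-1.

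Cofactors and regulators of HOX genes gave 0 calls by the edgeR quasi-likelihood test in every list, and of 71 genes that passed the filter 1 lay above and 1 below vector at an unadjusted p under 0.05 (0.41% and 0.921% of all tested genes). Among the TALE cofactors, which bind DNA together with HOX proteins, 8 of 9 passed the filter, with median log2 ratios to vector of -0.06 for the label shSNORD12B-1 and 0.01 for the label shSNORD12B-2. MEIS1 had 3.75, 5.52 and 10.2 CPM in the libraries labelled shSNORD12B-1, shSNORD12B-2 and vector, a log2 fold change of -1.14 (SE 0.46, unadjusted p = 0.035, adjusted p = 1 by the edgeR quasi-likelihood test). MEIS3 had 13.5, 29.0 and 17.6 CPM and MEIS2 21.1, 17.1 and 16.7 CPM. MEIS1 lay below vector in both shRNA libraries, and MEIS2 above it in both.

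Among retinoic acid genes, which produce, clear or sense a natural inducer of HOX genes, 11 of 17 passed the filter. Their median log2 ratio to vector was -0.40 for the label shSNORD12B-1 and 0.36 for the label shSNORD12B-2, so the list lay on opposite sides of vector. ALDH1A3, which makes retinoic acid, had 932, 742 and 418 CPM in the libraries labelled shSNORD12B-1, shSNORD12B-2 and vector, with a log2 fold change of 1.00 (SE 0.32, unadjusted p = 0.011, adjusted p = 1 by the edgeR quasi-likelihood test). DHRS3, which returns retinal to retinol, had 33.9, 56.6 and 37.8 CPM. RDH10, which acts in the opposite direction, had 29.3, 17.5 and 19.4 CPM, and the receptor RARA had 13.7, 17.6 and 19.1 CPM.

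Polycomb repressive complex 2, which places the methyl mark of silent HOX genes, had all 12 listed genes past the filter, with median log2 ratios of 0.04 for the label shSNORD12B-1 and -0.07 for the label shSNORD12B-2. PHF19, an accessory subunit, had 156, 136 and 99.99 CPM in the libraries labelled shSNORD12B-1, shSNORD12B-2 and vector, and RBBP4 had 172, 131 and 198 CPM. The 16 genes of Polycomb repressive complex 1, which binds that mark, had medians of -0.03 and 0.09, and CBX2 had 34.1, 23.5 and 40.0 CPM. The 13 trithorax and MLL genes, which keep HOX genes active, had medians of -0.08 and -0.01. KMT2B, a histone methyltransferase, had 124, 102 and 90.7 CPM, and KDM6B, which removes the Polycomb mark, had 32.1, 55.9 and 53.3 CPM. Cohesin, CTCF and other genes of cluster architecture or activation, of which 11 of 13 passed the filter, had medians of 0.22 and 0.15, and the cohesin subunit STAG1 had 42.7, 47.5 and 33.5 CPM.

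**Figure D4:**
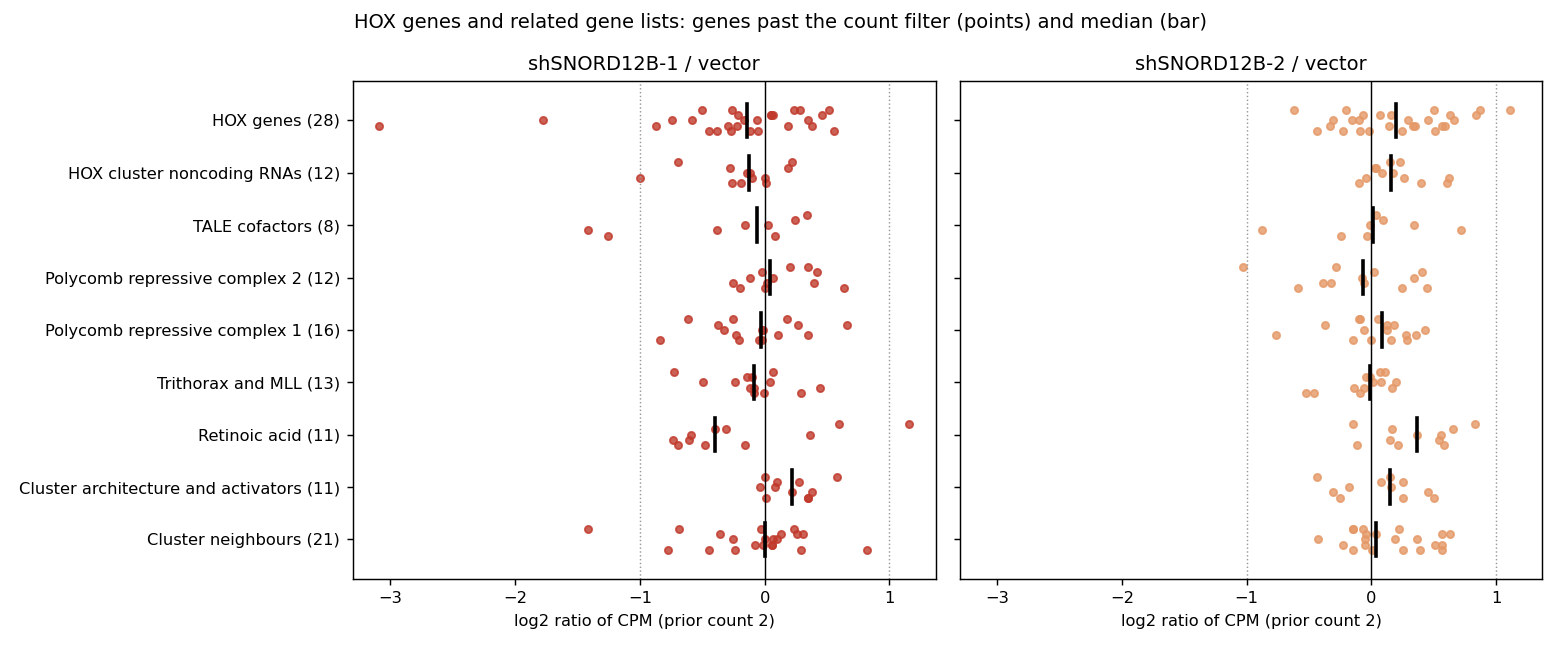
Log2 ratio of log-CPM (prior count 2) to the vector library for the HOX genes and related lists, in the library labelled shSNORD12B-1 (left) and in that labelled shSNORD12B-2 (right). Points are genes past the count filter, with their number in parentheses, bars are list medians and dotted lines mark 2-fold. HOX genes have medians of -0.14 on the left and 0.20 on the right, and the points at -3.09 and -1.78 on the left are HOXD10 and HOXD11.

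Genes bordering the other clusters, as far as they passed the filter, stayed within 2-fold in all pairs of libraries for 5 of 5 at HOXA, 4 of 4 at HOXB and 5 of 7 at HOXC (81.7% of all tested genes). SNX10, on the anterior side of HOXA, had 25.3, 18.7 and 14.3 CPM in the libraries labelled shSNORD12B-1, shSNORD12B-2 and vector. CALCOCO2, near the posterior end of HOXB, had 48.8, 92.7 and 62.6 CPM, and CALCOCO1, near HOXC13, had 27.0, 68.5 and 46.2 CPM. For CALCOCO1 and CALCOCO2 the vector library lay between the shRNA libraries, as it did for the posterior genes HOXA13, HOXB13 and HOXC13. It did not for the posterior genes HOXA10, HOXB9 and HOXC11. A vector value between the shRNA libraries, in either direction, was common. Only 28.2% of all tested genes lay above and 27.0% below vector in both (21.4% and 21.4% of the 28 HOX genes). The genes named here with vector in between were all lowest in the library labelled shSNORD12B-1. The share of all genes in that direction alone was not counted. EVX1, the homeobox gene beside HOXA13, had 0, 8 and 4 counts.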

How the data were processed

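RNA of 3 KYSE30 lines was measured, 2 with an shRNA against SNORD12B and 1 vector line. Raw counts of each gene were deposited, made with featureCounts 1.6.4 on an hg38 annotation with the strand option at 1, per the file headers. The submitters' processing notes name TopHat2, HTSeq and hg19 instead, and for the library kit nothing is given in the sources used here. The headers record no option to count a read that overlaps several genes. Of 60554 genes, 56558 matched a symbol by identifier, and the HOX genes are the 39 whose symbol is HOX, a letter A to D and a number.

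CPM was computed from the counts with TMM scaling on the totals of all genes (factors 1.004, 1.003 and 0.9927 for the libraries labelled shSNORD12B-1, shSNORD12B-2 and vector), and RPKM with the exonic length of the table. Genes past filterByExpr (17801) were fitted with edgeR 4.0.16 (R 4.3.3, two-sided quasi-likelihood test, Benjamini-Hochberg over all tested genes, threshold 0.05), with 1 residual degree of freedom, 8.35 prior ones, and 26.6% as the common biological coefficient of variation. An SE is the log2 fold change over the root of the test's F. Single libraries were compared by log-CPM (prior count 2), and count ratios carry exact conditional intervals at 95% (SciPy 1.17.1). Alternatives were other scaling, filters, prior counts, an overlap limit, DESeq2 1.42.0, limma-voom 3.58.1 and leaving out a library. Scaling of the cluster sums by total counts only was added after the data were seen. The fit was tested on simulated data. Promoter windows come from RefSeq, where 20 of the 39 genes matched. The members, gene lists and markers were chosen with earlier results of these data known. The rule gives values in every library for HOX genes with at least 1 CPM in some library, and names up to 4 genes per list with that level and the largest fitted log2 fold change, except that 1 HOX gene and 1 cofactor are not reported here singly and enter only sums, counts and medians.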

Additional observations from a re-analysis of the deposited data

How the results depend on the processing

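No paired analysis was possible because the vector group has 1 library and shares fewer than 2 replicate numbers with the shRNA group. Under every alternative run (scaling, filter, test), 0 HOX genes were called, whereas the calls over all genes, 0 by the edgeR quasi-likelihood test, became 1 with total counts only, 38 with the likelihood ratio test, 41 with no filter, 1 with a minimum of 1 CPM, 1 with limma-voom and 15 with DESeq2. The count of HOX genes 2-fold from vector in the library labelled shSNORD12B-1, 2 as reported, became 4 with no filter, by HOXC12 and HOXD9. Keeping the 15 tested genes with at most 10% of exonic bases overlapped left 0, since HOXD10 and HOXD11 overlap each other. The count in the library labelled shSNORD12B-2, 1 as reported, became 0 with a prior count of 5 and 0 under that overlap limit, and the count of 5 between the shRNA libraries became 2 under it. The medians became -0.26 (labelled shSNORD12B-1) and 0.35 (labelled shSNORD12B-2) under the overlap limit. Of 26 single genes, 2 log2 fold changes near 0 reversed under another scaling or test: HOXB5 to 0.00403 with total counts only and HOXB13 to -0.018 with limma-voom, and the cause was not tested. Leaving out a library, which gives values with no test, changed the sign for 4 of the 26 without that labelled shSNORD12B-1, HOXD10 and HOXD11 (0.49) among them, and for 11 without that labelled shSNORD12B-2. Without that labelled shSNORD12B-2 the values were, for example, -0.25 for HOXC4, -0.31 for HOXC9 and -0.24 for HOXA2. Moves past the counting interval of both shRNA libraries pooled took HOXA5 to -0.57, HOXA13 to -0.48, HOXB7 to -0.12 and HOXB13 to -0.82. They also took HOXC13 to -0.26, HOXD10 to -4.35 and HOXD11 to -2.10. The vector library cannot be left out. Depth limits the low HOX genes: at 10 to 30 counts the ratio intervals span more than 2-fold.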

Other observations

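A further list of homeobox genes outside the clusters, without the TALE cofactors, was low. It summed to 3.62, 5.63 and 8.20 CPM in the libraries labelled shSNORD12B-1, shSNORD12B-2 and vector. Of 8 listed genes, GSX1, GSX2, PDX1, GBX1 and MEOX2 had 0 counts in every library. MEOX1, a somite gene in mice, had 14, 76 and 87 counts in the libraries labelled shSNORD12B-1, shSNORD12B-2 and vector, or 0.921, 4.37 and 5.66 CPM, with a fitted log2 fold change of -1.08 (SE 0.75, adjusted p = 1 by the edgeR quasi-likelihood test). MNX1 had 11, 11 and 19 counts and GBX2 had 30, 11 and 20 counts in the same order.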
